A study of Homo sapiens with 8 samples.

Results

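The genes described here encode the proteins at the core of the human spliceosome. The list holds 47 genes, for the factors that read the branch point and the 3′ splice site, the proteins of the U1, U2, U4/U6 and U5 snRNPs, the Sm ring, the Prp19 complex, the ATP-driven helicases and a few splicing coactivators. All 47 held at least 1 called peak, among 12935 protein-coding genes with one. A peak was given to a gene when its midpoint lay in the RefSeq span of the gene on the strand of the gene. The list is one of gene names, with no threshold on the measured values.

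The assay was eCLIP of RBFOX2 in HEK293T, an established line derived from human embryonic kidney cells. In eCLIP the RNA that a protein touches is crosslinked to it with ultraviolet light, brought down with an antibody (immunoprecipitation, IP) and sequenced next to an input taken from the same lysate. The data comprise 8 samples, 4 RBFOX2 IP samples and 4 inputs, each from 10000000 cells irradiated with 400 mJ/cm2 at 254 nm, with 2% of the sample kept as the input. Each replicate number paired an IP with its input, and nothing in the labels says whether the 4 pairs came from separate cultures, so the spread between replicates may be technical.

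The spliceosome removes introns from pre-mRNA. U1 snRNP pairs with the 5′ splice site, SF1 and the U2AF heterodimer bind the branch point and the 3′ splice site, U2 snRNP then takes the place of SF1, and the U4/U6.U5 tri-snRNP joins before helicases rearrange the complex for catalysis. RBFOX2 is a splicing regulator that binds GCAUG-containing elements, often in introns next to alternative exons. Many genes for splicing factors are themselves alternatively spliced, in part into transcripts that are degraded through nonsense-mediated decay.

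For each peak the deposited lists give a log2 fold of IP over its paired input and a −log10 p, both computed by the authors. No peak with a log2 fold under 0 had a −log10 p above 0, so that p gives no measure of depletion in IP. A peak is called enriched here at a log2 fold of at least 3, an 8-fold excess in IP, together with a −log10 p of at least 3. Stretches with a called peak in all 4 replicates, 49493 in the whole series, are termed tested regions, and the mean log2 fold of each was tested against 0 with limma and Benjamini-Hochberg adjustment over all of them. Where a replicate had several peaks in a region, the one with the largest −log10 p was used, a choice that favours positive folds. A region that passed at an adjusted p of 0.05 is described as above input or below input. Read counts were not used here, so sequencing depth and counting error are unknown. By the fold alone, a high fold in the RNA of a weakly expressed gene cannot be told from one in an abundant RNA. Folds of weaker peaks recur across genes at the same values, such as 1.58, 2.0 and 2.58, near the log2 of small whole numbers. Small read counts give such steps, so calls built on these values may rest on few reads, which was not tested. Expression levels were not used either, so the identity of the cells was not checked from markers. The series held 267691 to 288305 called peaks per replicate, of which 0.861%, 0.848%, 0.789% and 0.775% were enriched in replicates 1 to 4.

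The 47 genes held 829, 886, 875 and 837 called peaks in replicates 1 to 4. Of these, 19, 12, 13 and 14 were enriched, a mean of 14.5 ± 3.11 peaks (SD, n = 4). Enriched peaks were 1.70% ± 0.415 of the called peaks in these genes (SD, n = 4), beside 0.818% over all called peaks of the series. That share came from a pair of genes. U2AF2 and SNRNP70 held 48 of the 58 enriched peaks in 197 of the 3427 called peaks, SF1 held 6, LUC7L2 held 3 and U2AF1 held 1, while 42 genes held none. In the 45 genes other than U2AF2 and SNRNP70, a set formed after their values were seen, the enriched share was 0.310% ± 0.0744 (SD, n = 4), which leaving out the genes with the most enriched peaks must lower. It was under the 0.775% to 0.861% of the series in each of the 4 replicates. On the strand opposite to the genes there were 5 called peaks over the 4 lists, and 0 of them were enriched.

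**Figure D1:**
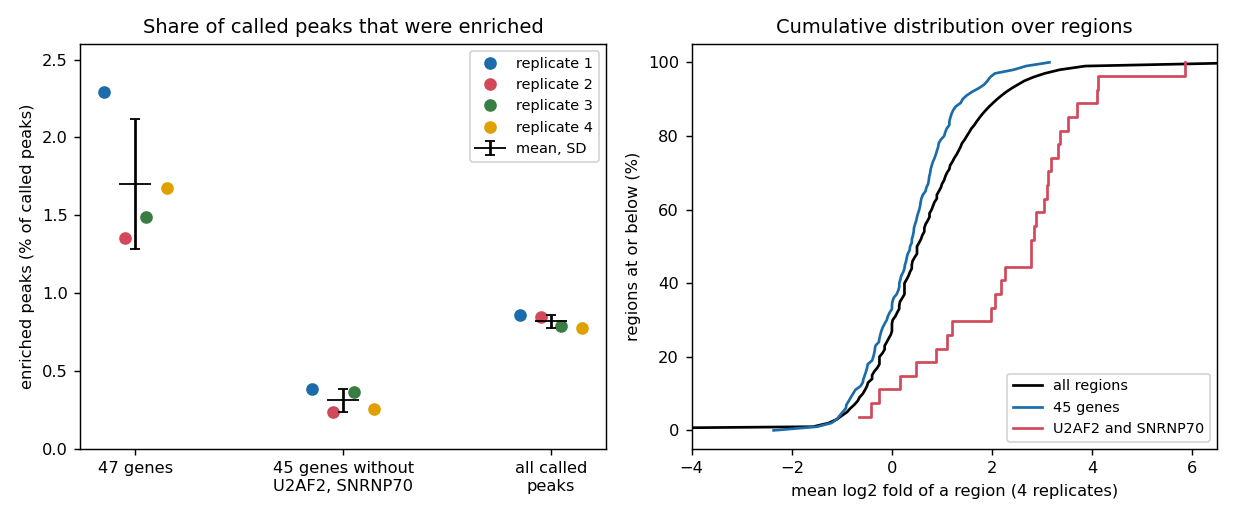
The left panel plots the percent of called peaks that were enriched in each replicate, for all 47 core spliceosome genes, for the 45 genes other than U2AF2 and SNRNP70, and for all peaks of the series, with the mean ± SD as bars. The right panel plots the cumulative share of tested regions by mean log2 fold of IP over input. The regions of U2AF2 and SNRNP70 lie to the right of the series. Those of the other 45 genes lie to its left over most of the range, with a median of 0.36 against 0.50 and a 90th percentile of 1.41 against 2.10. The pair was set apart after its values were seen, which by itself moves the curves in these directions.

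Counted by gene, the list as a whole was close to the background. An enriched peak in any replicate was found in 5 of 47 genes (10.6%), against 8.5% of protein-coding genes with a called peak. A region enriched in all 4 replicates was found in 1 gene, U2AF2 (2.13%), against 2.13% of protein-coding genes. The 47 genes were not sparsely covered, with a median of 53 called peaks per gene over the 4 lists (range 5 to 275) beside 44 in protein-coding genes.

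Tested regions numbered 302 in 44 of the genes, and the remaining 3, SF3B5, PRPF31 and BUD13, had none. By limma, 54 regions were above input (17.9%, against 21.1% of all tested regions) and 5 were below (1.66%, against 1.81%), with 100 regions at an unadjusted p under 0.05. Among genes with a tested region, 18 of 44 held one above input (40.9%, against 38.3% of protein-coding genes) and 4 held one below (9.09%, against 6.6%). The median over regions of the mean log2 fold was 0.43 in these genes and 0.50 in the series. U2AF2 and SNRNP70, set apart after their values were seen, had 20 of 27 regions above input against 34 of 275 (12.4%) in the rest. They also held 11 of the 13 regions whose mean log2 fold was at least 3. Picking the highest genes makes such a contrast, so it is a description. In 27 of the 54 regions above input at least 1 replicate reached a −log10 p of 3, and in the other 27 none did. Those calls rest on the agreement of the 4 folds and not on the authors' test in any one list. The same holds for the 5 regions below input, because no peak under a log2 fold of 0 had a −log10 p above 0. The calls depended on having all 4 replicates, because 0 member regions passed limma without replicate 1 or without replicate 4 (99 at an unadjusted p under 0.05 in either case). In both of those fits 0 regions of the whole series passed. Without replicate 2 and without replicate 3, 10 and 18 member regions were above input.

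The strongest signal lay in U2AF2, the large subunit of the U2AF heterodimer, which contacts the polypyrimidine tract before the 3′ splice site. The gene spans chr19:55655035-55674716 on the plus strand of GRCh38 and held 108 called peaks. Its enriched peaks numbered 9, 5, 7 and 7 in replicates 1 to 4, and all 28 fell within 1379 nt, chr19:55670415-55671793, which is 7.01% of the gene. This segment begins 15.4 kb from the gene's start and ends 2.92 kb before the gene's end. Inside it the median log2 fold of called peaks was 4.25, 3.0, 3.35 and 3.70 in replicates 1 to 4. The 63 called peaks in the rest of the gene had medians of 0.29, 0.26, 0.10 and 0.92, lower than the segment in every replicate. The segment was drawn around the enriched peaks, so this contrast is a description.

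**Figure D2:**
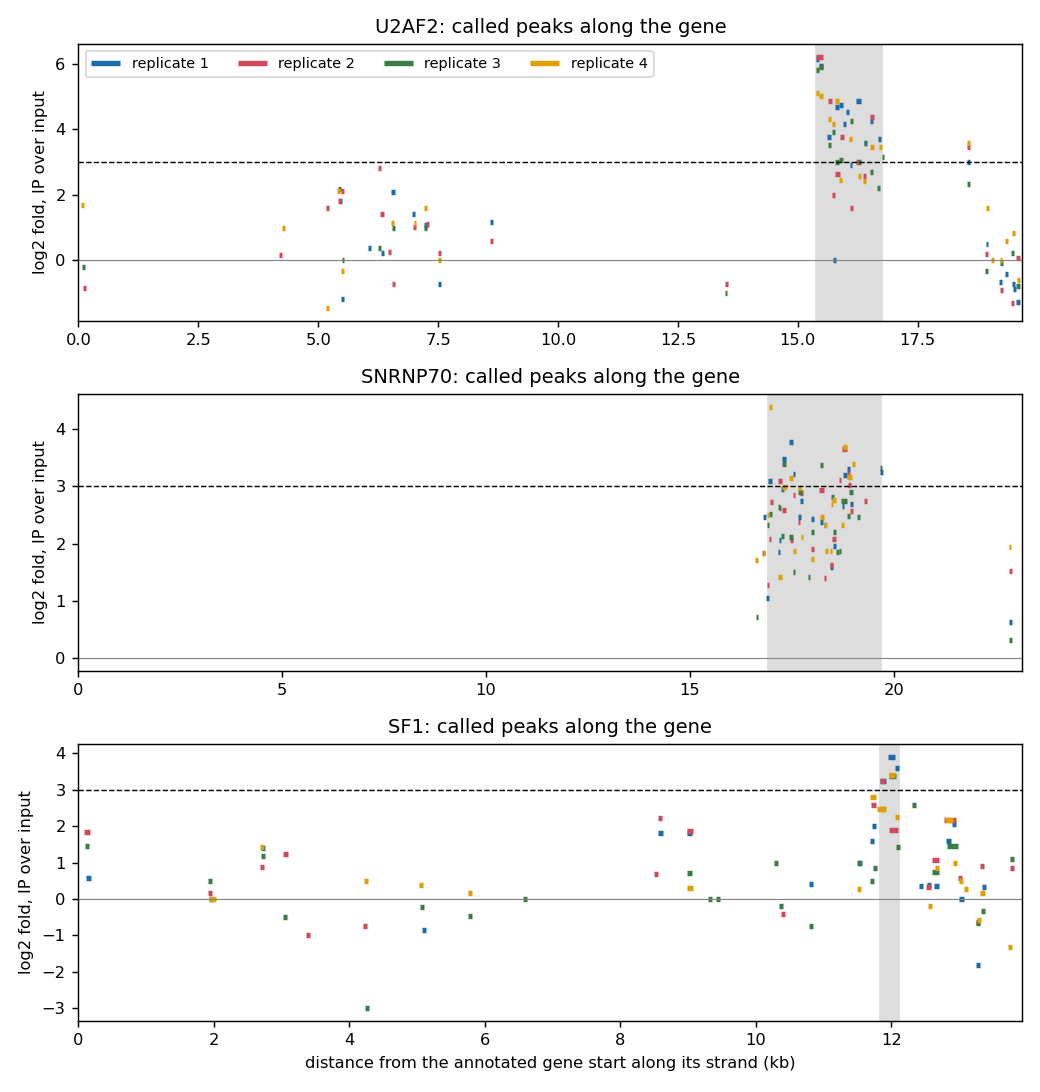
Every called peak in U2AF2, SNRNP70 and SF1 is drawn as a horizontal mark from its start to its end, in kb from the gene's start along its strand, at its log2 fold of IP over input, coloured by replicate; the grey band is the segment spanned by enriched peaks and the dashed line is a log2 fold of 3. U2AF2 shows a high first peak near 15.4 kb and a lower stretch after it, SNRNP70 shows a broad stretch from 16.9 to 19.7 kb in which no called peak was at or below input, and SF1 shows a single short segment.

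At the 5′ edge of that segment was the U2AF2 region chr19:55670415-55670556. Replicates 1 to 4 gave log2 folds of 6.16, 6.23, 5.90 and 5.13, a mean of 5.86 ± 0.506 (SD, n = 4; limma, Benjamini-Hochberg adjusted p = 0.00408). Its −log10 p stood at 400 in all 4 replicates. This is the ceiling of the lists, with no value between it and the next highest, so it reads as a set value and not a measured size. Whether the true −log10 p lay above or below 400 is unknown. Across the entire series 7 peaks had that value, and all 7 lay in this region. The next −log10 p in each list was 99.99, 90.7, 111 and 112, on chromosome 16, at log2 folds of 6.88, 6.35, 7.58 and 8.57. By fold the U2AF2 region was less extreme. Among the 552 regions of the series enriched in all 4 replicates, it ranked 42 by the lowest of its 4 log2 folds.

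Downstream of it, enrichment continued at a lower level. The region chr19:55670648-55670746 had log2 folds of 3.75, 4.86, 3.52 and 4.32 and a −log10 p of 5.79, 7.53, 4.98 and 4.68. The next, chr19:55670747-55671047, had log2 folds of 4.75, 3.76, 3.0 and 4.86 and a −log10 p of 6.67, 6.07, 5.97 and 7.24. These 3 regions held the only stretches of the 47 genes that were enriched in all 4 replicates, and the lowest replicate of the first exceeded the highest replicate of either of the others. Further on, chr19:55671048-55671173 was high in replicates 1, 3 and 4 at 4.52, 4.25 and 3.70 and lower in replicate 2 at 1.59. In chr19:55671241-55671341, replicate 1 stood at 4.86 and the other replicates at 3.0, 3.0 and 2.58. The last regions of the segment, chr19:55671396-55671444 and chr19:55671540-55671614, had means of 3.04 ± 0.63 and 3.70 ± 0.782 (SD, n = 4). All 7 tested regions inside the segment were above input, with limma adjusted p from 0.00408 to 0.0139.

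Outside the segment, 3 of 9 tested regions of U2AF2 were above input. The region chr19:55673554-55673617, nearer the gene's end, had log2 folds of 3.0, 3.46, 2.32 and 3.58 but a −log10 p of only 1.41, 2.47, 1.65 and 2.47, and no replicate met both limits for an enriched peak. Upstream, chr19:55660436-55660493 had log2 folds of 1.81, 1.81, 2.17 and 2.11, a narrow spread around a mean of 1.98 ± 0.195 (SD, n = 4). A weaker region, chr19:55662232-55662319, stood at 1.08, 1.12, 1.0 and 1.58. The 4 regions at the very 3′ end of the gene had means between -0.65 and 0.49 and were not called (limma adjusted p 0.194 to 0.707), so the signal did not extend to the end of the transcript.

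**Figure D3:**
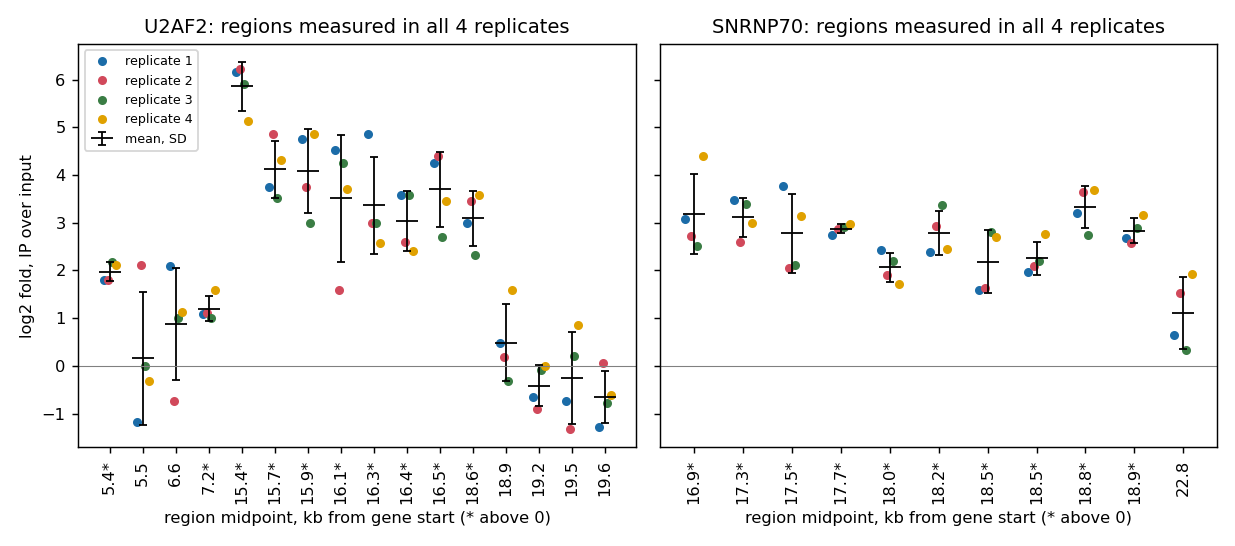
Each tested region of U2AF2 (16 regions) and SNRNP70 (11 regions) is plotted in order along the gene, with the log2 fold of IP over input of the 4 replicates as dots and the mean ± SD as a bar; a star marks regions above input by limma. In U2AF2 the first region of the segment reaches a mean of 5.86 and the regions at the 3′ end fall to input level; in SNRNP70 the first 10 regions lie between means of 2.06 and 3.32.

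U2AF1, the small subunit of U2AF that reads the AG at the 3′ splice site, had 23 called peaks and 3 tested regions. The region chr21:43107099-43107300, 0.379 kb from the start of the gene on the minus strand, had log2 folds of 2.81, 3.0, 1.74 and 2.32, with replicates 1 and 2 above replicates 3 and 4. Its mean was 2.47 ± 0.564 (SD, n = 4; limma adjusted p = 0.00826). Only replicate 2 held an enriched peak there, just past both limits at a log2 fold of 3.0 and a −log10 p of 3.14. GRCh38 has carried a near-identical copy of U2AF1, and how reads matching both were placed is not given in the sources used here, so these values are uncertain.

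SF1, the protein that first recognises the branch point, spans chr11:64764606-64778542 on the minus strand. Its 6 enriched peaks, 3 in replicate 1 and 1 in each of the others, lay within 285 nt, chr11:64766429-64766713, in the 3′ part of the gene 1.82 kb before its end. The median log2 fold of called peaks there was 3.58, 2.58, 2.46 and 2.46, against 0.50, 0.86, 0.49 and 0.28 in the remainder of the gene. The segment was again drawn around the enriched peaks, so these medians are a description.

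The SF1 region chr11:64766422-64766586 had log2 folds of 3.91, 1.91, 3.37 and 3.39 and a −log10 p of 6.61, 3.19, 6.38 and 4.18. It was enriched in every replicate but the second, and its mean was 3.14 ± 0.86 (SD, n = 4; limma adjusted p = 0.00833). The adjoining chr11:64766616-64766746 was at 3.25, 3.25, 2.46 and 2.46. In all, 5 of 10 tested regions of SF1 were above input and none was below.

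Among the U1 snRNP proteins, SNRNP70 carried almost all of the signal. SNRNP70 encodes U1-70K, which binds the first stem-loop of U1 RNA and contacts SR proteins. The gene spans chr19:49085451-49108604 on the plus strand, and no peak was called in its first 16.6 kb in any replicate. From there 77 of its 89 called peaks, and all 20 enriched ones (7, 5, 3 and 5 per replicate), lay within 2761 nt, chr19:49102371-49105131. Described in the same way, the median log2 fold in this segment was 2.68, 2.66, 2.5 and 2.58 in replicates 1 to 4, a spread of only 0.0821 (SD) around 2.6. The lowest called peak in it was still at 1.58, 1.28, 1.42 and 1.42. The few called peaks outside, 12 in all, had medians of 1.06, 1.68, 0.71 and 1.88.

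Where U2AF2 had one region of very high fold, SNRNP70 had many regions of moderate fold. All 10 tested regions in or at the edge of the segment were above input, with limma adjusted p from 0.00435 to 0.013. The highest mean belonged to chr19:49104157-49104296, with log2 folds of 3.2, 3.65, 2.75 and 3.68 and a −log10 p of 15.0, 13.4, 14.5 and 16.1. The highest deposited −log10 p in SNRNP70 belonged to chr19:49102603-49102819, with log2 folds of 3.48, 2.59, 3.39 and 2.99 and −log10 p values of 21.0, 17.0, 17.7 and 19.4. Between them, chr19:49103090-49103218 had nearly the same value in each replicate at 2.75, 2.88, 2.91 and 2.98. SNRNP70 had 3 regions enriched in 3 replicates and none enriched in all 4. The one region beyond the segment, chr19:49108270-49108330 near the gene's end, stood at 0.64, 1.52, 0.32 and 1.93 and was not called (limma adjusted p = 0.0927).

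The other U1 proteins had little. SNRPA encodes the A protein of U1, and its region chr19:40763246-40763299 had log2 folds of 2.0, 2.59, 2.0 and 1.0 (limma adjusted p = 0.0181). SNRPC, encoding the C protein of U1, had 3 tested regions with means from -1.28 to -0.21, none of them called.

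LUC7L, LUC7L2 and LUC7L3 encode the human relatives of yeast Luc7, U1-associated proteins that influence the choice of 5′ splice site. LUC7L2 had 275 called peaks, more than any other of the 47 genes, and 26 tested regions, of which 5 were above and 1 was below input. All 26 also lie in the span of the readthrough gene FMC1-LUC7L2, so these peaks cannot be given to LUC7L2 transcripts alone. In chr7:139375634-139376046 the log2 fold was 1.91, 2.17, 4.52 and 3.91, so that replicates 3 and 4, which alone had enriched peaks in the gene, stood well apart from replicates 1 and 2. Its mean was 3.13 ± 1.29 (SD, n = 4; limma adjusted p = 0.0175), the widest spread among the called regions of LUC7L2. A more even region, chr7:139372457-139372611, stood at 2.11, 2.32, 1.85 and 1.87. The region below input, chr7:139366994-139367039, had log2 folds of -3.0, -2.32, -2.81 and -1.32, lower in IP than in input in every replicate (limma adjusted p = 0.0128). Its deposited −log10 p was 0 in all 4 replicates. LUC7L3 had 1 called region, chr17:50745726-50746001, at 3.58, 2.25, 0.78 and 1.39, a mean of 2.00 (limma adjusted p = 0.0487). With regions rebuilt without replicate 2 that mean was 1.02. The 7 tested regions of LUC7L had means from -0.91 to 1.43 and none was called.

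**Figure D4:**
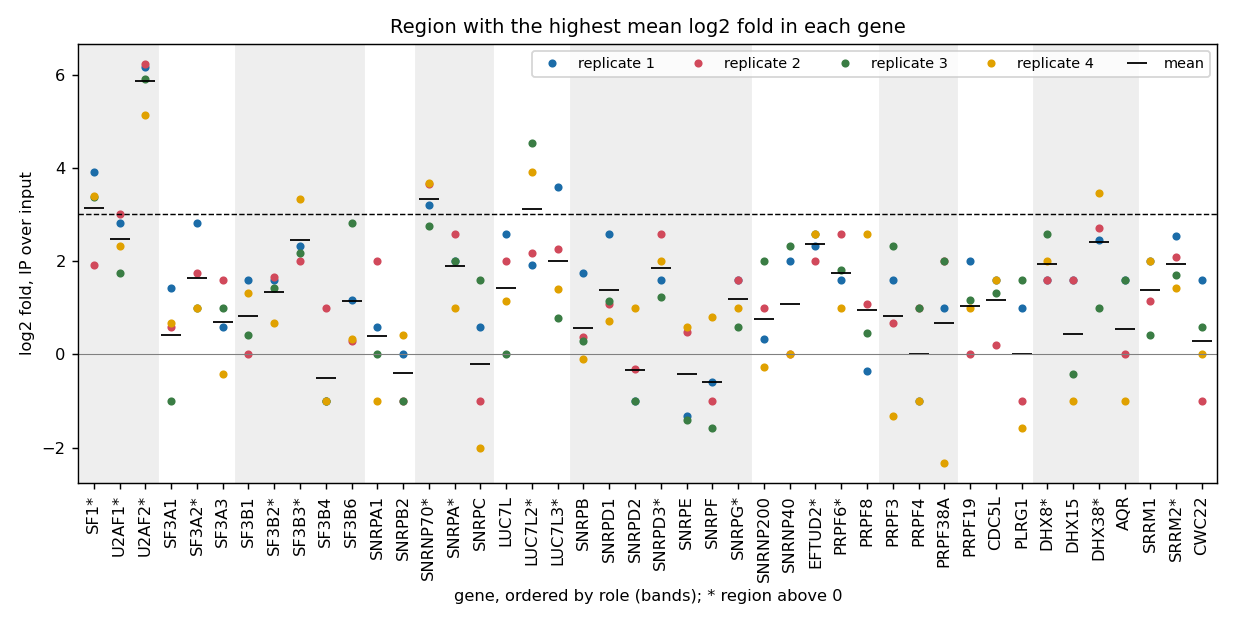
For each of the 44 genes with a tested region, the region with the highest mean log2 fold of IP over input is plotted, with the 4 replicates as dots and the mean as a bar, grouped by role; the dashed line is a log2 fold of 3 and a star marks a plotted region above input by limma. U2AF2, SNRNP70, SF1 and LUC7L2 alone have a mean above 3, and in SRRM1 the plotted region was not called although a lower one was.

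Most tested regions of the U2 snRNP genes were not called, as in the series, where 21.1% were above input and 1.81% below. The SF3B complex clamps the branch point duplex. SF3B1, its largest subunit and a gene recurrently mutated in leukaemia and myelodysplasia, had 16 tested regions with a median of -0.03, and none was above input. Of these, 2 were below, with chr2:197401739-197401824 at -1.59, -2.0, -1.0 and -2.0 (limma adjusted p = 0.0175) and chr2:197392197-197392279 at -1.59, -0.68, -1.0 and -1.0 (limma adjusted p = 0.0433). SF3B3 had one region in each direction. Its chr16:70556685-70556754 stood at 2.32, 2.0, 2.17 and 3.32 (limma adjusted p = 0.00878), and its chr16:70530772-70530830 at -1.59, -1.0, -1.74 and -1.59 (limma adjusted p = 0.0173). SF3B2 had 1 region above input, chr11:66063630-66063731, at 1.58, 1.66, 1.42 and 0.68. Over the 6 SF3B genes, 2 of 54 regions were above input and 3 of 54 were below, against 21.1% and 1.81% of all tested regions.

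SF3A, the other large U2 complex, had 2 of 10 regions above input, both near the 3′ end of SF3A2. The region chr19:2247894-2248326 stood at 1.22, 1.13, 1.55 and 2.48, and the abutting chr19:2248327-2248619, 0.182 kb before the gene's end, at 2.81, 1.74, 1.0 and 1.0. Replicate 4 was highest in the first and among the lowest in the next. SNRPA1 and SNRPB2, which encode U2 A′ and B″, had 6 tested regions with means from -0.75 to 0.40, of which limma called 0 (0 also at an unadjusted p under 0.05).

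The Sm proteins form the ring that is assembled on the U1, U2, U4 and U5 snRNAs. Over the 7 Sm genes, 3 of 25 regions were above input and none was below. SNRPD3 held 2 of them, chr22:24556088-24556212 at 1.58, 2.59, 1.22 and 2.0 and chr22:24567983-24568178 at 2.7, 1.81, 1.0 and 1.28. SNRPG held the third, chr2:70282284-70282388, at 1.58, 1.59, 0.59 and 1.0 (limma adjusted p = 0.0412). SNRPD1 had 4 tested regions with means from 0.32 to 1.38, and the 14 of SNRPB, SNRPD2, SNRPE and SNRPF had means from -1.12 to 0.57. None of these 18 was called. RefSeq names 20 pseudogenes after SNRPG, 20 after SNRPC and 11 after SNRPE, and 17 of the 47 genes have at least 1. The part that reads shared with such copies play in these values was not tested.

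The U5 snRNP sits at the centre of the catalytic spliceosome. PRPF8, the largest and most conserved spliceosomal protein, had 14 tested regions with means from -0.54 to 0.94, and limma called 0 of them (0 also at an unadjusted p under 0.05). Its highest, chr17:1675190-1675333, stood at -0.35, 1.08, 0.46 and 2.58, highest in replicate 4 (limma adjusted p = 0.266), and its mean was 0.40 without that replicate. EFTUD2, the U5 GTPase, had a single region above input, chr17:44883437-44883530, at 2.32, 2.0, 2.59 and 2.58, with all 4 replicates close together (limma adjusted p = 0.00592). Its deposited −log10 p was only 0.660, 0.661, 1.15 and 0.903, so no single replicate stood out by the authors' own test. The 4 folds are among the values that recur across genes, and how far such steps narrow their spread was not tested. PRPF6, which bridges U5 and U4/U6, had a pair of weaker regions near the 3′ end of the gene. The nearer to that end, chr20:64033009-64033077, stood at 1.58, 2.59, 1.81 and 1.0 (limma adjusted p = 0.0221). SNRNP200, the helicase that unwinds U4 from U6, and SNRNP40 had 7 tested regions with means from -0.98 to 1.08, none called.

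Among the U4/U6 and B complex genes, 0 of 12 regions were above input by limma, and 1 was below. That region, chr1:52417033-52417098 in PRPF38A, a protein of the pre-catalytic B complex, stood at -2.59, -1.0, -1.58 and -1.0 (limma adjusted p = 0.0372). The Prp19 complex, which stabilises the active site RNA, had 11 tested regions with means from -0.92 to 1.17, and limma called 0 of them (3 at an unadjusted p under 0.05).

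Of the helicase genes, DHX38 (human Prp16, which acts between the catalytic steps) and DHX8 (human Prp22, which releases the spliced mRNA) had regions above input. The DHX38 region chr16:72104138-72104259 had log2 folds of 2.46, 2.7, 1.0 and 3.46, with replicate 3 lowest (limma adjusted p = 0.021). A second region of DHX38, chr16:72104388-72104484, ran from 0.58 in replicate 1 to 2.81 in replicate 4. In DHX8, chr17:43492799-43492996 stood at 1.58, 1.59, 2.59 and 2.0 (limma adjusted p = 0.0116). No replicate reached a −log10 p of 3 in these DHX38 and DHX8 regions, and in the DHX8 region it ran from 0.426 to 1.15. DHX15, which disassembles the spent complex, and the intron-binding helicase AQR had 13 tested regions with means from -1.14 to 0.54, none called.

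SRRM2, a large nuclear speckle scaffold and splicing coactivator, had 163 called peaks and 7 of 21 tested regions above input (against 21.1% of all tested regions), yet no enriched peak. Its highest region, chr16:2768341-2768474, had log2 folds of 2.54, 2.09, 1.70 and 1.41 (limma adjusted p = 0.012). The next, chr16:2771199-2771315, close to the gene's end, stood at 2.07, 1.66, 1.25 and 2.38. The remaining 5 had means from 0.92 to 1.47. Its relative SRRM1 had 1 called region, chr1:24652914-24653025, at 1.0, 1.0, 1.32 and 1.58.

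Read by role, 16 of 29 regions in the branch point and 3′ splice site genes and 11 of 16 in the U1 snRNP genes were above input. In the other roles the count ran from 0 of 6 in U2 A′ and B″ and 0 of 12 in U4/U6 and B complex genes to 8 of 39 in the SR-related genes, against 21.1% of all tested regions. SNRNP70 held 10 of the 11 in the U1 genes, where the other genes had 1 of 5. U2AF2 held 10 of the 16 in the branch point and 3′ splice site genes, where SF1 and U2AF1 together had 6 of 13. In total 24 of the 44 genes, with 98 regions between them, had no region called in either direction. The other 20 held a called region, beside 3692 of 8723 protein-coding genes with a tested region.

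The regions above input tended to lie late in these genes. Their median position was 78.1% of the way along the gene (54 regions), and 55.6% of them were in the last 25% of the gene. Without U2AF2 and SNRNP70 the median was 62.7% (34 regions) and 41.2% were in the last 25%. For regions above input in all protein-coding genes the median was 52.3% (10072 regions), with 29.0% in the last 25%, and for all tested regions of the 47 genes it was 55.1%. These positions are given without a test. Which exons, introns or untranslated regions the peaks fall in was not analysed here.

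Recurrence between replicates can be set beside that of the series. Of 22 stretches of enriched peaks merged across the 4 lists, 7 were enriched in 1 replicate, 7 in 2, 5 in 3 and 3 in all 4. Over the series, 16.4% of 3371 such stretches were enriched in all 4 and 52.8% in 1. Spearman's rho of the log2 fold between pairs of replicates, over the 302 regions, was 0.405 to 0.536, as a description across regions that share libraries, and 0.280 to 0.438 over the 275 outside U2AF2 and SNRNP70. Over all tested regions it was 0.463 to 0.477. Near the limits, 15 peaks of the 47 genes had a log2 fold of at least 3 with a −log10 p under 3, and 48 had a −log10 p of at least 3 with a log2 fold from 2 to 3.

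A further 72 spliceosome and splicing factor genes, from a list that was likewise drawn up with earlier results known, gave a background of the same pathway. They held 4545 called peaks, of which 13 were enriched (0.286%), against 58 of 3427 (1.70% as the mean over replicates) in the 47 core genes and 0.818% in the series. RBM10 held 6 of the 13 and XAB2 held 4. Limma placed 36 of their 319 tested regions above input (11.3%, against 21.1% of all tested regions) and 5 below (against 1.81%). Of the 63 genes with a tested region, 20 held one above input, beside 3339 of 8723 protein-coding genes (38.3%). A region enriched in all 4 replicates occurred in 1 of the 72 genes, against 2.13% of protein-coding genes with a called peak. It lay in RBM10, an RNA-binding protein that promotes exon skipping. That region, chrX:47145657-47145789 on the plus strand, had log2 folds of 4.75, 4.00, 4.17 and 4.52, lower in each replicate than the U2AF2 region at the edge of its segment.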

How the data were processed

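The authors deposited 1 peak list per IP replicate, each against its paired input. The lists have no header. Of the 2 deposited columns of values, one was taken for a −log10 p and the other for a log2 fold of IP over input, from their ranges and signs. Per the submitters' processing notes, the build is hg38 (GRCh38.p13) and UMI-tools 1.1.1, cutadapt 3.2 and STAR 2.7.7a were used. The peak caller, its test, the scaling between IP and input and any filter are not given in the sources used here.

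Gene spans came from RefSeq (GRCh38.p14). Strand was taken from the RefSeq promoter table for 44 genes and from the called peaks for SF3B3, SNRPD1 and PRPF3, which had 0 called peaks on the opposite strand. Coordinates are 1-based. Called peaks of the 4 lists were merged by an overlap of at least 1 nt on one strand. A region called in all 4 lists took its log2 fold in each replicate from whichever peak had the largest −log10 p, with ties going to the higher fold. Because no peak under a log2 fold of 0 had a −log10 p above 0, this took a positive fold wherever a replicate had one. The choice leans toward calls above input and away from calls below it, and the size of that lean was not tested. An intercept-only limma fit (limma 3.58.1, R 4.3.3, eBayes, two-sided, Benjamini-Hochberg over 49493 regions, 0.05) tested the mean against 0, after the fit was tested on simulated data. Enriched peaks were merged in the same way. Shared parts of gene spans were counted for each gene.

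Named in full are U2AF2, SNRNP70, SF1 and the other members with a region called by limma, with PRPF8 and SF3B1 named whatever their values. The members and lists were chosen with earlier results of these data known, so no p-value is given over the members. Alternatives covered the thresholds, the overlap and gene rules, the limma settings and leaving out each replicate. Sequence of the bound regions was not used here.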

Additional observations from a re-analysis of the deposited data

Results flagged for a closer look

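Of 68 sets of 4 replicate values examined, 3 had a replicate far from the others, where chance gives about 1 in 20, and all 3 were in SF1. Replicate 1 held 3 enriched SF1 peaks, against 1 in each of the other replicates. The median log2 fold of called peaks in the SF1 segment was 3.58 in replicate 1, against 2.46 to 2.58 in the others. In another SF1 region, chr11:64765562-64765763, with a mean log2 fold of 1.96 ± 0.343 (SD, n = 4), replicate 3 was lowest at 1.45, against 2.07 to 2.17 in the others. The first and second of these share peaks and are not separate evidence.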

How the results depend on the processing

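The mean of 14.5 enriched peaks per replicate became 9.5 with a −log10 p of at least 5 and 30.0 with a log2 fold of at least 1. At that lower fold, regions enriched in all 4 replicates rose from 3 to 13 and genes holding one from 1 to 3. Leaving out each replicate in turn gave 13 to 15.3 peaks, 2 to 6 regions enriched in all that remained, and 1 to 2 genes. Without U2AF2 and SNRNP70, an alternative added after the data were seen, 2.5 peaks, 0 regions and 0 genes were left, with 34 regions above input (12.4%). Tested against a log2 fold of 1, limma called 20 regions above (6.62%) and 0 below. Restricted to regions where some replicate reached a −log10 p of 3, a rule that itself picks enriched regions, 30 were above (96.8%) and 0 below. With a replicate left out, limma called 0 to 18 regions above (0 to 5.13%) and 0 to 1 below: 0 without replicate 1 or 4, 10 without replicate 2 and 18 without replicate 3, with 95 to 99 at an unadjusted p under 0.05. Leaving out peaks that lie in another gene too moved none of the 6 results by over 1.5 times. Nor did any overlap with a gene or either strand, run on the 3 counts of enriched peaks, regions and genes. The 3 limma results also stayed within 1.5 times with the peak of highest fold, a choice that favours positive folds too. They did so too with a variance trend on the mean −log10 p (48 above, 5 below). A mutual overlap of 50% left 2 regions and 1 gene. Of 21 named regions, 18 were above input, 2 were below, and that of PRPF8 was not called in the main fit. Against a log2 fold of 1, 14 of the called ones were no longer past the threshold. With the trend on the mean −log10 p, 2 were lost (LUC7L3 and SNRPG). Without replicate 1 and without replicate 4, all 20 called ones were lost, with 17 lost without replicate 2 and 14 without replicate 3. None changed sign. No paired analysis was possible because the input is already divided out of every log2 fold and the lists hold no other group. Motifs, exons and introns were not run. Depth is unknown, so the floor of a detectable fold could not be given.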

Other observations

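Of the 302 tested regions in the 47 genes, 3 lay in the span of a snoRNA gene on the same strand, 2 of them in SF3B3 and 1 in SNRPB, and limma called none of the 3. In all, 30 member regions lay in the span of another gene on the same strand, 26 of them in LUC7L2, where 2 were also in FMC1.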
